A study of Oryza sativa with 3 samples.

Results

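Stretches of the rice genome that gave RNA but carried no gene identifier were described across node, stem and leaf blade. Members were the rows of each gene table with no identifier, a locus length (end minus start) of 200 bases or more and 1 FPKM or more. FPKM is the number of sequenced fragments, scaled by transcript length and library size. These were 2188 of 57637 rows in node, 1992 of 57562 in stem and 2062 of 57615 in leaf blade. Rows that shared a base on the same chromosome were joined, within and across tissues, which gave 3186 merged loci. Total RNA came from 1 library each of node (nodes I and II), stem and leaf blade of rice (Oryza sativa), from plants kept at 29 °C with 12 h of light at about 80000 lux and 12 h of dark. The labels name neither the cultivar nor the stage, nor whether plants were pooled. With 1 library per tissue there are no replicates, so no p-value is given, and in bulk tissue fewer cells of a type and less RNA per cell cannot be told apart. Because the members were chosen by their FPKM and length in these same libraries, every level and every count by tissue is a description.

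RNA from outside the annotated genes of a plant can be of many kinds. Long noncoding RNAs, for which 200 bases is the customary lower bound, are transcribed between genes, inside introns or on the strand opposite a gene. Unannotated exons or ends of known genes, coding genes missed by the annotation, precursors of microRNAs and transcribed transposable elements give rows of the same kind. In grasses a node joins leaf and stem and holds dense vascular tissue, and the leaf blade is the main photosynthetic organ. The deposited tables give a position and a level for each row, and neither the strand, the exons nor the sequence, so the loci are named here by position alone.

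The tissue labels were checked against 10 genes chosen with earlier results of these data known. The antenna protein gene CAB1R had 163 FPKM in node, 668 in stem and 4277 in leaf blade, whereas its relative CAB2R had 304, 2741 and 1999. The silicon exporter gene LSI2 had 110.5 FPKM in node, 4.40 in stem and 0.323 in leaf blade, and the homeobox gene OSH15 had 145, 411 and 0.284. The cellulose synthase gene CESA3 did not separate stem from node, at 118 FPKM in node, 111 in stem and 6.16 in leaf blade. The depth was alike, with 39960000 implied fragments in node, 43160000 in stem and 39880000 in leaf blade. The implied number of fragments of a row is the square of 2 times its FPKM over the distance between the FPKM and the upper interval bound, and covers counting error only.

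The median member was lower in level, shorter and backed by fewer fragments than the median gene with 1 identifier at 1 FPKM or more. The median was 3.46 FPKM in node, 3.31 in stem and 3.25 in leaf blade, against 12.3, 12.1 and 12.8 FPKM for genes with 1 identifier at 1 FPKM or more in the same libraries. In node 477 members (21.8%) reached 10 FPKM, in stem 430 (21.6%) and in leaf blade 434 (21.05%), and 47, 38 and 33 reached 100 FPKM. Members held 2.82% of the summed FPKM in node, 2.85% in stem and 2.82% in leaf blade, and 1.67%, 1.61% and 1.71% of the implied fragments. The share of RNA from such loci was thus nearly the same in the 3 libraries.

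The median locus length was 1111 bases in node, 1154.5 in stem and 1083 in leaf blade, about a kilobase in each, against 3564, 3619 and 3612.5 for the genes. The median member rested on 79.0 implied fragments in node, 96.7 in stem and 86.0 in leaf blade, against 686, 756 and 746 for genes. Fewer than 20 backed 315 members in node, 257 in stem and 289 in leaf blade. The shortest members stood out in level. Those of 200 to 299 bases had a median of 17.9 FPKM in node, 11.5 in stem and 14.4 in leaf blade, yet 16, 16 and 18 implied fragments. Members of 1000 to 1999 bases had medians of 2.86, 2.95 and 2.91 FPKM with 109, 131 and 125 implied fragments. A high FPKM of a member near the length minimum is therefore a value from few fragments.

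The loci were divided between those listed in all 3 tissues and those listed in a single one. Of the 3186 loci, 922 (28.9%) were found in all 3 tissues, 638 (20.03%) in 2 and 1626 (51.04%) in 1. Node and stem shared 294 loci that were not found in leaf blade under the rule. Stem and leaf blade alone shared 177, and node and leaf blade alone shared 167. By tissue, 603 loci were found only in node, 418 only in stem and 605 only in leaf blade. Of the 1986 loci of node, 46.4% were found in all 3 tissues, as were 50.9% of the 1811 of stem and 49.3% of the 1871 of leaf blade.

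**Figure D1:**
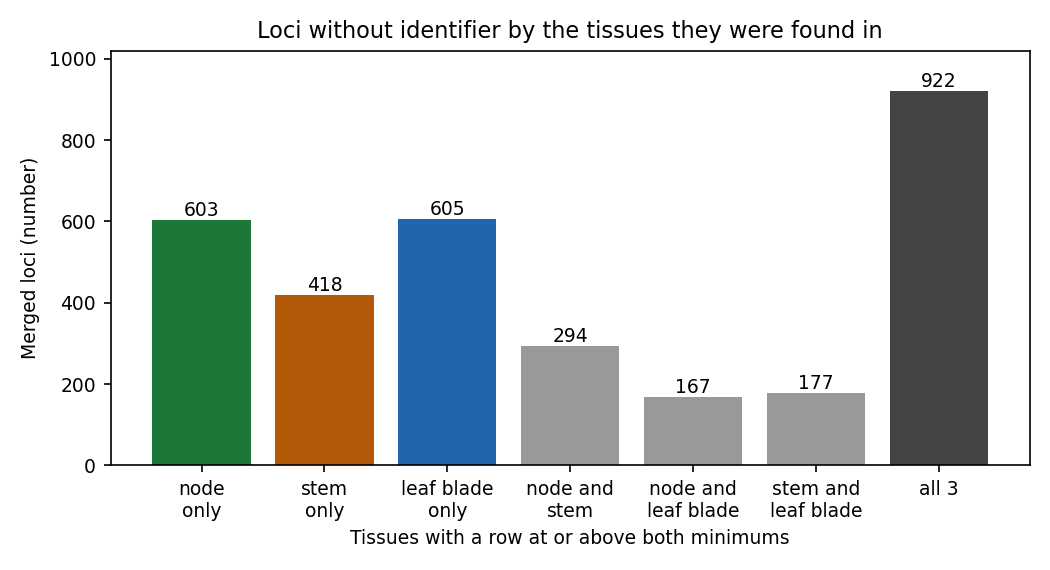
Number of merged loci without identifier (vertical axis, from 0) by the tissues with a row at or above both minimums (horizontal axis). The tallest bar is the 922 loci found in all 3 tissues, and the bars for 1 tissue hold 603 (node), 418 (stem) and 605 (leaf blade).

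Members found in all 3 tissues were longer, higher and more often away from genes than those found in 1. In node the median length was 1471 bases for rows found in all 3 tissues and 693 for rows found only there, in stem 1506 and 712, and in leaf blade 1436 and 653. Matching rows by a shared base itself favours this difference. The median level was 5.09 FPKM against 2.45 in node, 4.90 against 2.08 in stem and 4.71 against 2.13 in leaf blade, a difference that the FPKM minimum itself favours. Rows under 20 implied fragments made up 4.75% of the members found in all 3 tissues and 30.8% of those found only in node, and 3.55% and 32.2% in stem and 4.86% and 31.2% in leaf blade. Of rows found in all 3 tissues, 25.2% in node, 24.4% in stem and 24.0% in leaf blade overlapped a row with an identifier in the same library, against 63.7%, 58.4% and 56.7% of rows found in a single tissue. A locus at a gene can be listed under that gene in another library and then counts as not found there, so the rule also bears on this contrast.

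At most loci that were not found in a tissue, its library listed a row of some kind. Identified rows count here at any FPKM, and many genes are listed at 0 (44.5% of single genes in node). Such a row shares a base with the locus and does not by itself show RNA there. Of 1200 loci not found in node, 597 (49.8%) coincided in node with a row that has an identifier, where such a row was also present in a tissue with the locus. A further 66 (5.50%) coincided with an identified row in node and with none where the locus was found. In 180 (15.0%) node had a row without identifier under 1 FPKM, and 347 (28.9%) had no row at all. The other libraries were alike, with no row at 383 of 1375 loci (27.9%) in stem and 381 of 1315 (29.0%) in leaf blade.

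**Figure D2:**
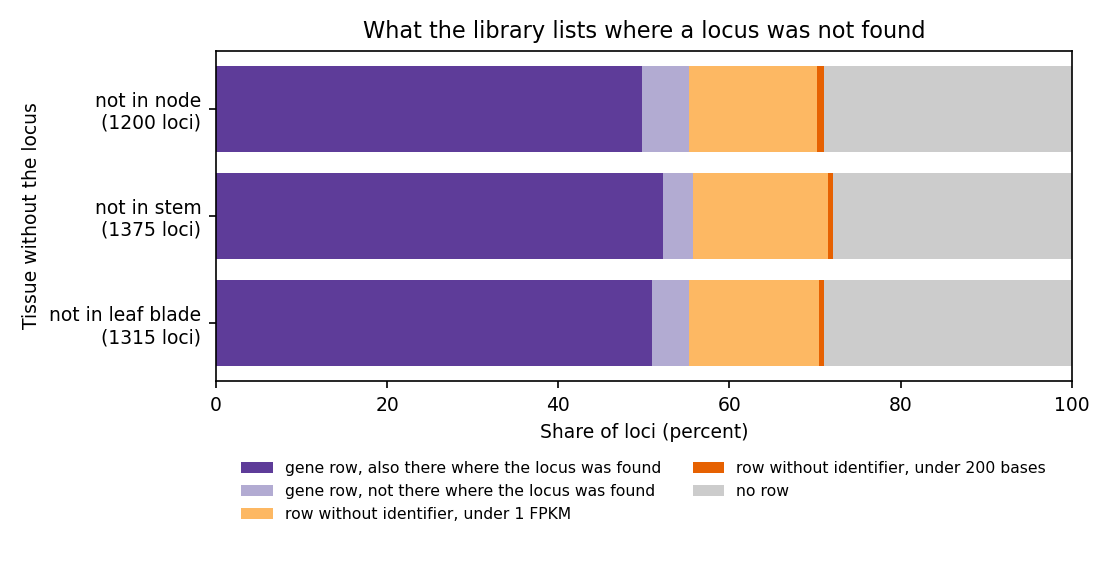
What each library lists at loci found elsewhere but not in that tissue, as percent of those loci (horizontal axis) for node, stem and leaf blade (vertical axis). Rows with an identifier, counted at any FPKM, cover about the same stretch in each bar. No row was listed for 28.9% in node, 27.9% in stem and 29.0% in leaf blade.

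Among loci found in a single tissue, those with no row of any kind in both other libraries were the minority, at 117 of 603 in node (19.4%), 82 of 418 in stem (19.6%) and 175 of 605 in leaf blade (28.9%). These were low, with medians of 1.86, 1.75 and 1.79 FPKM, and 13, 4 and 15 of them reached 10 FPKM. The highest of them was at 26.6 FPKM in node, 19.7 in stem and 85.3 in leaf blade. An identified row, at any FPKM, in at least 1 of the other libraries shared a base with 409 of the loci found only in node (67.8%). In stem these were 279 (66.7%) and in leaf blade 369 (61.0%), and the identified row need not span the locus.

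The share found in all 3 tissues grew with the level and stayed below that of annotated genes at most levels. Among node members at 10 to 50 FPKM, 63.8% belonged to loci found in all 3 tissues, against 91.3% of genes of that level that reached 1 FPKM in all 3. In stem the shares at that level were 72.2% for members and 96.1% for genes, and in leaf blade 70.0% and 94.95%. At 50 FPKM or more they were 77.01% and 95.5% in node, 84.6% and 98.3% in stem and 77.4% and 97.2% in leaf blade. At 1 to 2 FPKM in node the order was the other way, at 32.2% for members and 30.7% for genes. A gene keeps its identifier in every library, whereas a locus without one can be listed under a gene in another library, so the 2 shares are not of the same construction.

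**Figure D3:**
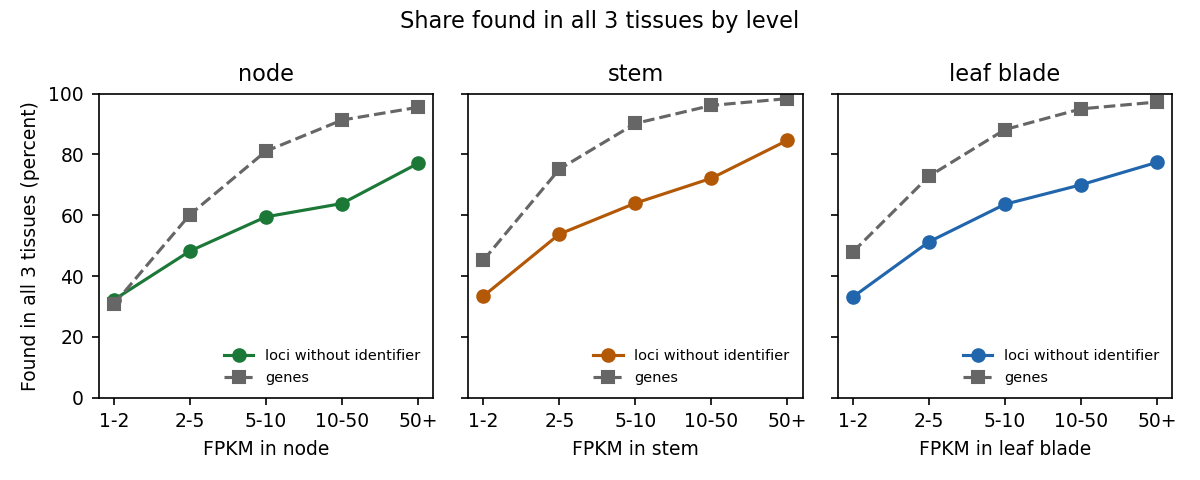
Share found in all 3 tissues (percent, vertical axis, 0 to 100) by FPKM band in node, stem and leaf blade (1 panel each), for members (filled circles) and for genes with 1 identifier at 1 FPKM or more in all 3 (squares, dashed). Members stand below genes in every band except 1 to 2 FPKM in node, where they are at 32.2% and 30.7%.

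The rule did not name position relative to genes, but it kept only rows without identifier. Because RNA at a gene can be listed under that gene, the shares by position are not independent of the rule. No share expected from the stretch of genome that gene rows cover was computed. In node 877 members (40.1%, 95% exact binomial interval 38.02 to 42.2%) overlapped a row with an identifier, 564 (25.8%, 23.95 to 27.7%) lay within 1 kb of one and 747 (34.1%, 32.2 to 36.2%) lay farther away. In stem these shares were 35.2% (33.1 to 37.4%), 28.1% (26.1 to 30.1%) and 36.6% (34.5 to 38.8%), and in leaf blade 38.02% (35.9 to 40.2%), 26.5% (24.6 to 28.5%) and 35.5% (33.4 to 37.6%). The intervals cover counting error only and treat members as independent, which rows at 1 gene are not. Of the members that overlapped, 62.8% in node, 64.8% in stem and 67.2% in leaf blade lay wholly inside a gene row, and 27.9%, 25.5% and 26.5% crossed its edge. The members outside genes lay a median of 1258 bases from the nearest gene row in node, 1228 in stem and 1250.5 in leaf blade.

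Fewer of the genes that members overlapped were described as transposable elements, and more were expressed, than among all genes listed. Of 795 single genes overlapped in node, 9.56% were described as transposons or retrotransposons, against 29.4% of all such genes in the table. In stem the shares were 9.72% of 607 against 29.3%, and in leaf blade 9.58% of 647 against 29.4%. Genes described only as an expressed protein made up 34.3% of those overlapped in node, 41.4% in stem and 38.9% in leaf blade, against 25.4% of all genes in each library. The overlapped gene itself was at 1 FPKM or more in 70.9% of cases in node, 71.0% in stem and 73.6% in leaf blade, against 35.6%, 32.6% and 32.9% of all genes. All genes here include those listed at 0, which were 44.5% in node, 45.4% in stem and 44.6% in leaf blade. Members were chosen at 1 FPKM or more in the same libraries, which may favour both contrasts, and this was not tested. The tables carry no strand, so RNA of a member and of the gene it overlaps cannot be told apart.

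The loci lay on all 12 chromosomes, and 7 more lay on sequences outside them (6 on Sy and 1 on Un). Their density ran between 7.23 loci per megabase on chromosome 12 and 10.1 on chromosome 1, with chromosome length taken as the highest locus end in the tables. Relative to genes at 1 FPKM or more, chromosome 11 had the most, at 22.4 loci per 100 genes, followed by chromosome 10 at 20.6, and chromosome 3 had the fewest, at 11.9. Of 380 windows of a megabase, 2 held no locus, the median held 8 and the fullest held 22, on chromosome 8 between 3000001 and 4000000. Over the 378 windows with a locus, the number of loci and the number of expressed genes had a Spearman correlation of 0.44, given as a description of windows that share the same 3 libraries. Chromosome 1 had 90 loci found only in node and 69 found only in leaf blade, chromosome 11 had 40 and 58, and chromosome 6 had 59 and 58. Over all loci these were 603 and 605, and the spread between chromosomes was not tested.

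The most abundant loci were mostly listed in all 3 tissues and mostly did not overlap an identified row. Of the 10 highest in each tissue, 10 in node, 9 in stem and 9 in leaf blade were found in all 3, and 0, 2 and 2 overlapped an identified row. Of the 10 loci with the highest minimum FPKM over the tissues, none overlapped an identified row. Their distances to the nearest gene row ran between 135 and 5662 bases, and most were under 1 kb (135, 370, 393, 413, 437 and 603). They were chosen for being high, so what follows gives their levels only. The first, on chromosome 3 at 32398459 to 32399873, had 1782 FPKM in node (interval 1741 to 1823), 823 in stem (797 to 849) and 1280 in leaf blade (1249 to 1310), so node was the highest and stem the lowest. Its nearest gene row, LOC_Os03g56890, 393 bases away and described only as an expressed protein, was at 0.124 FPKM in node, listed at 0 in stem and at 0.0763 in leaf blade.

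The second, on chromosome 11 at 13506335 to 13507229, had 495 FPKM in node, 619 in stem and 494 in leaf blade, and its intervals in node (485 to 506) and leaf blade (484 to 504) overlapped. The third, on chromosome 7 at 21672343 to 21674145, had 537 FPKM in node, 499 in stem and 475 in leaf blade. The fourth, on chromosome 7 at 4567418 to 4568582, had 471 FPKM in node, 1792 in stem and 418 in leaf blade. Its stem value is the sum of 2 rows, of which 1 of 447 bases gave 1539 FPKM, while the row in node spanned 850 bases. The implied fragments there were 13326 in node, 18496 in stem and 10871 in leaf blade, so stem was also the highest by fragments, with a smaller margin.

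Other loci of this set were uneven between tissues. On chromosome 7, the one at 2092786 to 2093786 had 627 FPKM in node, 353 in stem and 376 in leaf blade. The locus on chromosome 12 at 12240351 to 12242507, which lay 1334 bases from a gene described as the signalling peptide RALFL25, had 222 FPKM in node, 616 in stem and 304 in leaf blade, but its implied fragments were 1692, 1533 and 2804. Stem was thus the highest by FPKM and the lowest by fragments. The locus on chromosome 3 at 34431571 to 34434483, which lay 370 bases from an actin-depolymerizing factor gene, had 321 FPKM in node, 365 in stem and 298 in leaf blade, with 14416, 16752 and 8561 implied fragments. The nearest gene, LOC_Os03g60580, had 18.7 FPKM in node, 26.0 in stem and 9.90 in leaf blade, well under the locus beside it. The other 3, on chromosomes 2, 4 and 7, were between 287 and 543 FPKM in every tissue.

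**Figure D4:**
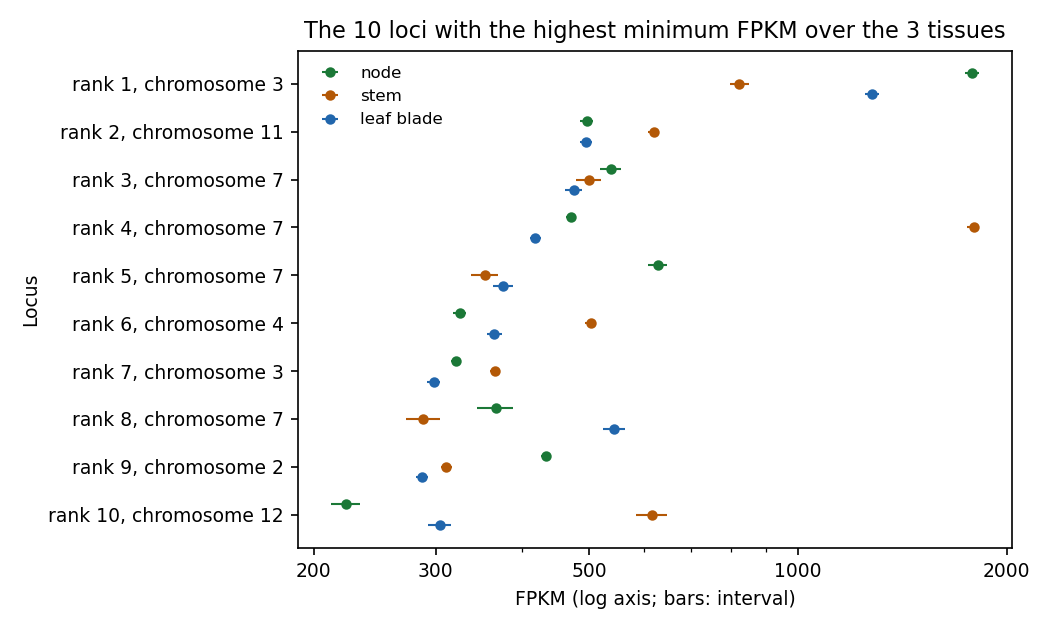
FPKM (horizontal log axis, bars are the deposited interval, combined over rows where a locus has 2) of the 10 loci with the highest minimum over the tissues, in node, stem and leaf blade. The first locus is at 1782 (node), 823 (stem) and 1280 (leaf blade) FPKM, and the fourth has its highest value in stem, at 1792.

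Further loci were among the 10 highest of 1 or 2 tissues. The locus on chromosome 4 at 22461239 to 22463726 had 457 FPKM in node, 785 in stem and 214 in leaf blade, and its implied fragments, at 2644, 2928 and 4360, were most numerous in leaf blade. On chromosome 2 at 24553701 to 24554997, stem had 498 FPKM from a row of 601 bases with 6874 implied fragments, and node 140 FPKM from a row of 1297 bases with 6555. The fragments were nearly equal and the FPKM was not. On chromosome 11 at 16365128 to 16367861, leaf blade had 608 FPKM, of which 541 came from a row of 331 bases, while node had 75.6 and stem 73.1, with implied fragments of 6518 in node, 8568 in stem and 6200 in leaf blade. The part of row length in these differences was not tested.

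Of the 15 highest loci found in a single tissue (the 5 highest in each), 12 overlapped an identified row of any library. These were 5 in node, 4 in stem and 3 in leaf blade. Over all rows found in a single tissue, 63.7% in node, 58.4% in stem and 56.7% in leaf blade overlapped an identified row of the same library. With so few loci, no difference from these shares is read. The highest of node, on chromosome 9 at 16154027 to 16154340, had 225 FPKM (interval 206 to 244) and overlapped LOC_Os09g26620, described as an auxin-repressed protein, which had 640 FPKM in node, 1808 in stem and 993 in leaf blade. Another of node, on chromosome 7 at 21592490 to 21593591, had 117 FPKM and overlapped a core histone gene, LOC_Os07g36140, at 330 FPKM in node, 405 in stem and 428 in leaf blade. Others of node lay at a sucrose synthase gene, LOC_Os03g22120, with 120 FPKM from 43.0 implied fragments (stem and leaf blade listed rows under 200 bases there), and at a RING finger gene, LOC_Os01g52110, with 111 FPKM from 42.0. The fifth overlapped LOC_Os07g43770, an expressed protein gene at 272 FPKM in node, 139 in stem and 24.1 in leaf blade, so each of the 5 genes had more than 24 FPKM in every library.

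In stem the highest, on chromosome 1 at 6761037 to 6761243, had 395 FPKM from 11.5 implied fragments, with an interval of 163 to 628. It overlapped rows of several identifiers, an esterase and a GDSL-like lipase gene among them. Next in stem came loci at a gene of the photosystem II protein PsbP, LOC_Os07g04840, with 90.5 FPKM, and near a retrotransposon gene, 311 bases away, with 77.0 FPKM. At this last place node and leaf blade listed rows under 200 bases, and the leaf blade row, of 142 bases, had 2451 FPKM from 127 implied fragments, so RNA there was not particular to stem. In leaf blade the highest, on chromosome 4 at 32481379 to 32482357, had 244 FPKM and overlapped LOC_Os04g54630, described as an expressed protein, which had 7.69 FPKM in node, 41.7 in stem and 196 in leaf blade. The gene there was itself highest in leaf blade.

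An intergenic locus of leaf blade stood apart from these. On chromosome 1 at 33586559 to 33587559 it had 85.3 FPKM in leaf blade (interval 82.3 to 88.2) from 3259 implied fragments, and no row without identifier was listed there in node or stem. The nearest gene, LOC_Os01g58048, 126 bases away and described as an expressed protein, had 0.0925 FPKM in node and 0.138 in stem and was listed at 0 in leaf blade. It was the highest of the 175 loci found only in leaf blade with no row of any kind in the other libraries.

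For loci with a row in both tissues of a pair, levels were compared as log2 ratios of (FPKM + 1), which understates the differences of low values, and a locus was called at 4-fold or more. Rows under 1 FPKM were used where a merged locus had them, and rows of 1 locus were summed. Between node and leaf blade, 48 of 1381 loci were higher and 44 lower (3.48% and 3.19%), beside 12.3% and 7.29% of the 20097 genes that reached 1 FPKM in any of the tissues. In stem versus leaf blade, 26 of 1383 loci were higher and 28 lower (1.88% and 2.02%), beside 6.43% and 6.52% of genes. In node versus stem, 24 of 1504 loci were higher and 25 lower (1.60% and 1.66%), beside 6.82% and 2.3% of genes. The medians were 0.01, -0.00 and 0.05 for the loci and 0.13, -0.02 and 0.16 for the genes. These genes include some listed at 0 in a tissue, whereas a locus needs a row in both. With 1 FPKM or more in both tissues, 3.31% of loci were higher and 3.58% lower in node versus leaf blade, beside 6.89% and 5.50% of genes. In stem versus leaf blade these were 2.09% and 1.73% beside 4.81% and 4.52%, and in node versus stem 1.56% and 1.81% beside 4.16% and 1.94%. These comparisons share libraries and rest on the FPKM that chose the loci, and 752 loci with a node row had no row without identifier in leaf blade, so nothing is read from the calls as a count.

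The share called grew with the level of the higher tissue, for loci and, in most bands, for genes. Because 1 was added to each value, a 4-fold call was out of reach at 1 to 2 FPKM and hard to reach at 2 to 5. The growth over the lowest bands is thus partly set by the calculation. Where the higher tissue had 10 to 50 FPKM, 15.5% of loci and 19.1% of genes above 0 in both tissues were called in node versus leaf blade, 9.12% and 13.7% in stem versus leaf blade, and 9.69% and 9.71% in node versus stem. At 50 FPKM or more they were 26.9% and 28.96%, 12.5% and 21.5%, and 11.96% and 12.6%. At 5 to 10 FPKM they were 3.64% and 19.4%, 3.72% and 12.7%, and 1.41% and 10.1%. At 2 to 5 FPKM the shares were 0.257% and 7.86%, 0.239% and 4.27%, and 0 of 442 loci and 3.65%. A gene can be listed at any level above 0, while a locus has a value only where a row was listed.

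Loci higher in node than in leaf blade included stretches between genes and stretches over transposon genes. On chromosome 3 at 23076795 to 23078362, node had 245 FPKM (interval 239 to 250.5) and leaf blade 1.25 (0.682 to 1.83), which differ by 6.77 on the log2 scale, and stem had no row without identifier. The gene listed there, LOC_Os03g41480, an expressed protein, was at 0 in node, 7.76 FPKM in stem and 2.47 in leaf blade. On chromosome 12 at 18721520 to 18724729, which overlapped no gene row, levels were 183 FPKM in node, 29.7 in stem and 1.43 in leaf blade. The nearest gene, a CACTA transposon 2540 bases away, was listed at 0 in all 3.

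A long locus on chromosome 8 at 27773334 to 27794153 had 121 FPKM in node and 92.5 in stem against 1.19 in leaf blade, with 7218, 7355 and 14.1 implied fragments, from rows of 1475, 20820 and 1108 bases. The log2 differences from leaf blade were 5.80 in node and 5.42 in stem, the highest of the stem comparison, and the gene rows it overlapped were retrotransposons, of which LOC_Os08g44110 was listed at 0 in node, at 0.272 FPKM in stem and at 0.0803 in leaf blade. On chromosome 1 at 13160745 to 13164522 node stood alone, with 222 FPKM in node, 4.85 in stem and 3.93 in leaf blade. The transposon gene there, LOC_Os01g23430, had 26.1, 0.385 and 0.688 FPKM, so locus and gene were both highest in node. The last of the 5, on chromosome 5 at 17955267 to 17957033, had 48.7 FPKM in node, 19.6 in stem and 0.912 in leaf blade.

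Loci lower in node than in leaf blade were led by one at a gene. On chromosome 8 at 16253277 to 16259596, node had 3.68 FPKM (interval 2.53 to 4.83) and leaf blade 950 (939 to 961), which differ by -7.67 on the log2 scale, with 41.0 and 29097 implied fragments. It overlapped LOC_Os08g26710, described as a plant protein of unknown function, and LOC_Os08g26720, an expressed protein. In stem no row without identifier was listed there. The next, on chromosome 6 at 22555837 to 22560258 with no overlapping gene, had 2.35 FPKM in node and 1.84 in stem against 93.4 in leaf blade, where 13832 implied fragments backed it.

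Others low in both node and stem against leaf blade lay between genes. On chromosome 2 at 3557406 to 3560824, levels were 0.382 FPKM in node, 1.03 in stem and 35.2 in leaf blade. On chromosome 9 at 11631592 to 11632567 they were 1.71, 2.59 and 36.8 FPKM, and on chromosome 1 at 42301616 to 42302458 they were 4.08, 1.75 and 40.45. These 3 rested on 1053 to 5724 implied fragments in leaf blade and on 22.0 to 78.7 in node and stem. A locus on chromosome 8 at 26016581 to 26019050 was lower too, at 1.89 FPKM (node) against 50.7 (leaf blade), but 47.5 of the leaf blade value came from a row of 225 bases, and the implied fragments were 199 and 310.

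Stem versus leaf blade held a locus at a Rubisco gene. On chromosome 12 at 11272264 to 11273989 the locus had 17.9 FPKM in node, 55.9 in stem and 2.05 in leaf blade, so stem and leaf blade differed by 4.22 on the log2 scale. It overlapped LOC_Os12g19381, a gene of the Rubisco small subunit, the carbon-fixing enzyme, which had 110.4 FPKM in node, 1394 in stem and 2096 in leaf blade. Locus and gene thus differed in opposite directions between stem and leaf blade. On chromosome 4 at 23192304 to 23200664, 70 bases from a C2H2 zinc finger gene, levels were 101 FPKM in node, 329 in stem and 17.0 in leaf blade, and the stem value rested on 16175 implied fragments. On chromosome 7 at 2400244 to 2400970, far from any gene row (9371 bases), they were 15.7, 56.8 and 2.16 FPKM, and on chromosome 5 at 18293375 to 18294494 they were 27.6, 29.1 and 0.975.

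Of the loci lower in node than in stem, the lowest log2 ratio, -4.76, was on chromosome 9 at 5477828 to 5480263, with 4.90 FPKM in node, 159 in stem and 36.9 in leaf blade. The disease resistance gene there, LOC_Os09g10054, had the same order, at 3.56 FPKM in node, 82.9 in stem and 17.2 in leaf blade. At a pathogen-related gene, LOC_Os01g53090, the locus on chromosome 1 at 30512710 to 30513652 had 4.53 FPKM in node against 59.5 in stem, while the gene had 1.90, 15.2 and 80.8 in node, stem and leaf blade. A locus on chromosome 9 at 16063939 to 16074228 had 7.13 FPKM in node against 79.5 in stem and 83.2 in leaf blade, whereas the protease gene it overlapped, LOC_Os09g26550, had 153, 16.9 and 23.4. Between genes, the locus on chromosome 7 at 23013423 to 23014308 had 2.30 FPKM in node, 30.5 in stem and 2.60 in leaf blade.

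Higher in node than in stem were a locus 77 bases from LOC_Os10g23060, an expressed protein gene, with 37.4 FPKM in node against 2.44 in stem, and one on chromosome 2 at 19376483 to 19385532, 3137 bases from a lectin receptor kinase gene, with 11.7 against 0.441. At a retrotransposon gene, LOC_Os07g10070, a locus had 19.0 FPKM in node, 1.15 in stem and 8.94 in leaf blade. On chromosome 8 at 3230065 to 3230266, 26.3 FPKM in node against 0.348 in stem, a log2 difference of 4.34, rested on about 10 and 9.86 implied fragments from rows of 202 and 1030 bases. A further locus, on chromosome 6 at 4248306 to 4249939, was lower in node, at 1.74 FPKM against 45.9 in stem, where a row of 299 bases gave 43.2 of it.

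For most calls the implied fragments differed the same way as the FPKM. Of the 48 loci higher in node versus leaf blade, 41 also had 2-fold or more of the share of implied fragments, and of the 44 lower, 36 did. In stem versus leaf blade these were 22 of 26 and 24 of 28, and in node versus stem 19 of 24 and 16 of 25. The fragments ran the other way for 8 calls in node versus leaf blade (4 in each direction), 5 in stem versus leaf blade (3 higher and 2 lower) and 5 in node versus stem (3 and 2). Of the called loci, 39.1% overlapped an identified row in node versus leaf blade, against 36.6% of all compared. The shares were 27.8% and 36.8% in stem versus leaf blade and 44.9% and 36.2% in node versus stem, and the differences were not tested.

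**Figure D5:**
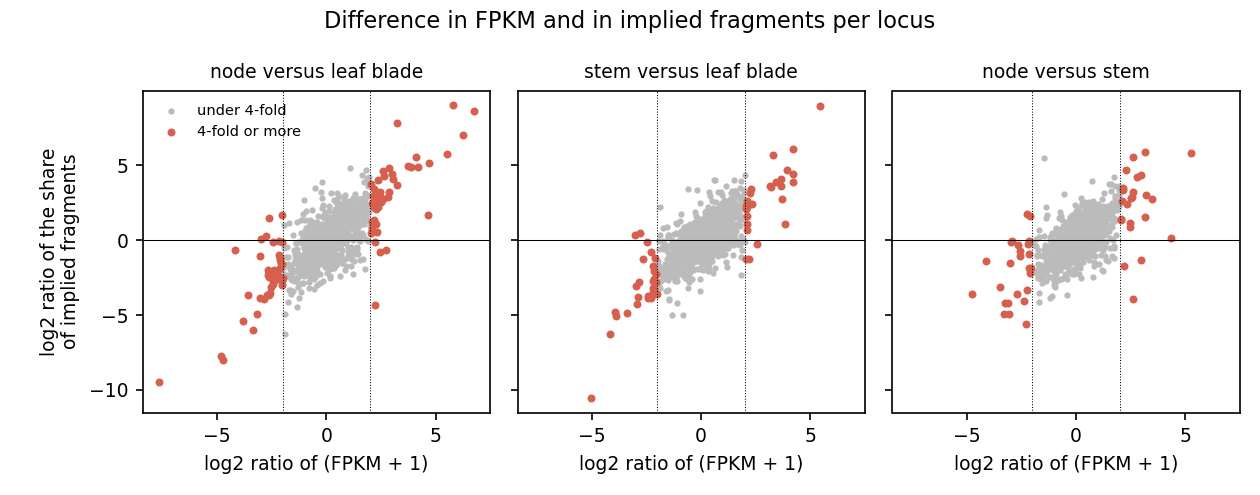
Log2 ratio of (FPKM + 1) (horizontal axis) against the log2 ratio of the share of implied fragments (vertical axis) for each locus with a row in both tissues, in a panel for each pair of tissues. Dotted lines mark 4-fold, red points are called loci, and most of them, such as 41 of 48 higher in node versus leaf blade, lie on the same side by fragments.

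Differences of a locus and of the gene beside it had correlations near 0. Among 143 loci outside genes whose nearest gene lay within 1 kb and was expressed, the log2 differences of locus and gene in node versus leaf blade had a Spearman correlation of 0.10, and of the 8 loci called lower, 1 had a gene called lower and 2 had a gene called higher. The correlation was 0.09 over 142 loci in stem versus leaf blade and 0.11 over 152 in node versus stem. Neighbouring expressed genes within 1 kb of each other had correlations of 0.05, 0.05 and 0.03 over 2872 pairs. These are descriptions over points that share 3 libraries, and nothing is read from values so near 0.

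The 3 longest loci each spanned several annotated genes. The longest row was in node, on chromosome 12 at 2031740 to 2130954, spanning 99215 bases and many annotated genes, with 7.08 FPKM in node, 0.793 in stem and 1.74 in leaf blade, from rows of 99215, 2162 and 4497 bases. A row of 30055 bases in node on chromosome 2 at 3106042 to 3136096 rested on 19.8 implied fragments, at 2.16 FPKM. At the other end, the 2 members nearest the FPKM minimum in node were both at 1.00 FPKM, on chromosomes 8 and 6 with 22.5 and 39.0 implied fragments, and the 2 just under it were at 0.998 and 0.995. At the length minimum in node, a member of 200 bases had 120 FPKM, and a row of 198 bases on chromosome 10, just outside, had 41.4 FPKM from 14.0 implied fragments.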

How the data were processed

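Per the file headers, each row of a deposited table holds a locus, an identifier, a description and the authors' FPKM with its interval. The submitters' processing notes name TopHat without a version. Which program made the FPKM values, and the build and annotation, are not given in the sources used here. An FPKM value divides by a transcript length, so rows of unlike extent at 1 place can differ in FPKM with equal fragments. Starts were taken to count from 0 and 1 was added, because the difference of end and start was divisible by 3 for 47.7% of single-identifier loci under 3000 bases, against 33.3% by chance. Implied fragments were within 0.02 of a whole number for 56.8% of members under 200 fragments in node, 57.4% in stem and 55.8% in leaf blade, against 4% by chance, so no count test was run.

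Rows without identifier under 200 bases (33, 24 and 32 in node, stem and leaf blade) or under 1 FPKM (1006, 1000 and 1147 of the longer ones) were left out. Members and genes were joined with Python 3.11.15, pandas 2.3.3 and SciPy 1.17.1, after merging and calling were tested on simulated data. Tissues were grouped by the labels alone. RefSeq's rice gene table held 0 of the 51597 identifiers, so names come from the deposited descriptions. No genome was used, so no sequence is shown. The members, lists and naming rules were chosen with earlier results of these data known. Named loci were the 10 highest per tissue, the 5 highest found in 1 tissue, the 10 with the highest minimum, the 5 highest and 5 lowest log2 ratios per pair where either tissue reached 10 FPKM, the 3 longest, and those nearest each minimum. Alternatives changed the minimums, the overlap, the pseudocount, the scaling and the distance.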

Additional observations from a re-analysis of the deposited data

Results flagged for a closer look

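Rows without identifier under 200 bases are outside the comparisons above, and some had very high FPKM from few fragments. The highest in node, on chromosome 5 at 7698007 to 7698190, had 13047 FPKM (interval 9785 to 16309) from 64.0 implied fragments, or 1.29% of the summed FPKM of that library. The highest in stem, on chromosome 10 at 2755965 to 2756070, had 57111 FPKM (30189 to 84034) from 18.0 implied fragments, or 5.95%. The highest in leaf blade was at the same place as in node, on chromosome 5 at 7698009 to 7698193, with 4571 FPKM (3360 to 5782) from 57.0, or 0.490%, and stem had 8742 FPKM there. Together the short rows held 3.56% of the summed FPKM in node, 7.78% in stem and 1.26% in leaf blade, more in node and stem than the 2.82% and 2.85% held by all the members described above.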

How the results depend on the processing

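Of 69 values recomputed, 35 stayed within 1.5 times the reported count or, for shares, within the binomial interval, and 34 did not. With a minimum of 5 FPKM the rows were 857 in node, 752 in stem and 761 in leaf blade, and the loci found in 1, 2 and 3 tissues were 685, 245 and 362. A length minimum of 500, a shared stretch of 50% of each row, and counting any row above 0 FPKM kept these counts within 1.5 times. Loci found in all 3 tissues numbered 806, 853 and 1189 under them, against 922. Calls at 4-fold, higher and lower, were 90 and 72 with a pseudocount of 0.1, 20 and 18 with a pseudocount of 5, and 31 and 28 with 1 row per tissue in node versus leaf blade; 66 and 55, 13 and 8, and 17 and 17 in stem versus leaf blade; and 58 and 45, 9 and 10, and 15 and 12 in node versus stem. The last setting compares fewer loci. Requiring 2-fold in implied fragments, chosen after the data were seen, left 16 loci lower in node versus stem, against 25. Rescaling without the 50 most abundant rows, and intervals that do not overlap, kept the calls within 1.5 times. So did requiring 5 FPKM in at least 1 tissue for the compared loci, without choosing the members anew. Few or no calls of a pair lay under 5 FPKM, so this last setting could change little. Outside genes but within 5 kb of one lay 55.0% of rows in node, 60.3% in stem and 57.3% in leaf blade. Rows that overlapped a gene were counted apart, at 40.1%, 35.2% and 38.02%. Counting only genes at 1 FPKM or more, 31.4%, 27.8% and 30.6% of rows overlapped one and 15.8%, 15.1% and 14.8% lay within 1 kb. Depth limits the members under 20 implied fragments, 14.4% in node, 12.9% in stem and 14.02% in leaf blade. No paired analysis was possible because each tissue had 1 library and no result comes from a test.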
